A study of Homo sapiens with 9 samples.

Results

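Ribosome biogenesis factors were followed in the nuclear RNA of the human osteosarcoma line U2OS after knockdown of dyskerin or GAR1. They are 59 protein-coding genes of the 58425 genes in the files, listed by name as assembly factors, with earlier results of these data known when the list was drawn up: 33 factors of small subunit assembly, 22 factors of large subunit assembly and 4 general nucleolar proteins. The groups were siDyskerin (cells transfected with an siRNA against dyskerin), siGAR1 (an siRNA against GAR1) and siControl (a control siRNA), each at 15 nM for 48 hours with 3 libraries. All the cells were of one line and took up siRNA with the same lipid reagent, and the knockdowns were transient and partial. The study lists the control siRNA from Qiagen and both knockdown siRNAs from Dharmacon. A change shared by both knockdowns against siControl therefore cannot be told apart from a difference in siRNA source. Reads of each member were summed over its transcripts in each library, and all 59 members passed the filter on low counts.

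Ribosomes are built in the nucleolus from a long precursor that RNA polymerase I transcribes. The small subunit processome, made of the UtpA (t-UTP), UtpB and UtpC subcomplexes, the U3 small nucleolar RNA particle and many single factors, folds and cuts the part of the precursor that gives 18S rRNA. Large subunit factors, among them the PeBoW complex, GTPases and DEAD-box helicases, process the part that gives 28S and 5.8S rRNA. Dyskerin is the pseudouridine synthase of the H/ACA particle, in which an H/ACA small nucleolar RNA guides the enzyme to uridines of the precursor, and GAR1 is one of its core proteins. In human cells many of these guide RNAs are cut out of introns of genes that themselves serve ribosome synthesis.

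The 9 libraries held 48838756 to 90698675 reads in summed transcript counts, and the third replicate was the shallowest of each group. Reads shared by isoforms of a gene were counted once per isoform, so that sums differ between genes with their annotation and are compared only between groups. DKC1, which encodes dyskerin, had 3079, 3127 and 3102 normalized counts in siDyskerin, 26092, 25006 and 22655 in siGAR1, and 20962, 22743 and 20802 in siControl. GAR1 had 715, 719 and 711 normalized counts in siDyskerin, 92, 84 and 115 in siGAR1, and 599, 594 and 665 in siControl. Each siRNA thus lowered its own target in every library. TPM, abundance relative to transcript length and library size, was summed over a gene's transcripts for cell type markers. Shared reads enter these sums once per isoform, so the order between markers is approximate. Of 8 mesenchymal and bone markers, VIM had the highest sum, 2288 to 2943 TPM, and COL1A2, at no more than 0.0353 TPM, was nearly absent. Of 7 epithelial markers, none exceeded 2.61 TPM in any library. Mitochondrially encoded mRNAs took 0.0871 to 0.100% of the reads in siDyskerin, 0.107 to 0.127% in siGAR1 and 0.102 to 0.115% in siControl, and the part of this difference in the results below was not tested. Counts are relative to the library, so a change in the nuclear RNA content of a whole cell, or in the share of cells of a given state, cannot be told apart from a change in a gene. The labels name the libraries as replicates without saying how cultures were shared, and p-values measure the spread between these libraries.

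Levels between members were compared per length, as TPM of the most-read coding transcript. In siControl they were highest in NPM1 at 98.6 TPM, NCL at 80.1 TPM and EBNA1BP2 at 75.6 TPM. They were lowest in RRP8 at 1.45 TPM, RIOK1 at 1.38 TPM and PWP2 at 0.116 TPM. NPM1 and NCL (nucleolin) are abundant nucleolar chaperones, RRP8 is a methyltransferase of the large subunit pathway and RIOK1 is a late small subunit kinase. The level of PWP2, a UtpB subunit, is uncertain, because 91.7% of the 50-base words of its transcript also occur in a copy of the gene on the same chromosome that was counted separately. For NPM1 the share of such words in other measured genes was 60.0%, among them its pseudogenes.

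Dyskerin knockdown raised some members and lowered others. HEATR1 and NOL9 rose and RRP1B, TBL3 and DDX27 fell at an adjusted p under 0.01 (edgeR's quasi-likelihood test on all 18444 genes, Benjamini-Hochberg adjustment). Of the 59 members, 2 were thus higher (3.39%) and 3 lower (5.08%). Of all genes tested, 3.08% were higher and 3.32% lower by the same rule. The members' log2 fold changes ran between -0.70 for RRP1B and 0.85 for HEATR1, and 46 of 59 lay within 0.2 of 0. None passed the additional threshold of an absolute log2 fold change above 1, which 0.938% of all genes passed. At an unadjusted p under 0.05, 3 members were higher (5.08%) and 14 lower (23.7%), against 13.0 and 13.1% of all genes. DESeq2 called 2 members higher and 7 lower at an adjusted p under 0.01, against 5.60 and 6.01% of the genes to which it gave an adjusted p. The members' median log2 fold change was -0.03, against 0.0033 for all genes, and 38 of 59 were below 0, against 49.4% of all genes. In 6 members (10.2%) all siDyskerin libraries lay above all siControl libraries, against 16.0% of all genes. In 16 members (27.1%) all lay below, against 15.5% of all genes.

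HEATR1 changed the most. It is the largest subunit of UtpA, needed for transcription and early processing of the precursor, and lies on chromosome 1 (GRCh38, 236549005 to 236604516, minus strand). It had 15257, 16422 and 16288 normalized counts in siDyskerin, 15988, 16318 and 15249 in siGAR1, and 8259, 9352 and 9045 in siControl. All 6 knockdown libraries lay above all 3 siControl libraries, and the siDyskerin and siGAR1 libraries overlapped. The log2 fold change was 0.85 ± 0.06 (SE) in siDyskerin (adjusted p = 2.24e-06, edgeR) and 0.84 ± 0.06 in siGAR1 (adjusted p = 5.95e-06, edgeR), both against the same siControl libraries. The difference between the knockdowns was 0.01, with a 95% interval of -0.14 to 0.17. Both knockdown siRNAs came from another supplier than the control siRNA, and the part of this in the shared rise was not tested. In all 5 of its measured transcripts, which share most of their reads, the log2 ratio was between 0.84 and 0.90 in siDyskerin and between 0.82 and 0.88 in siGAR1. The other 5 UtpA subunits (WDR43, WDR75, UTP4, UTP15 and NOL11) had log2 fold changes of -0.08 to 0.04 in siDyskerin and 0.08 to 0.16 in siGAR1, and none passed.

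**Figure D1:**
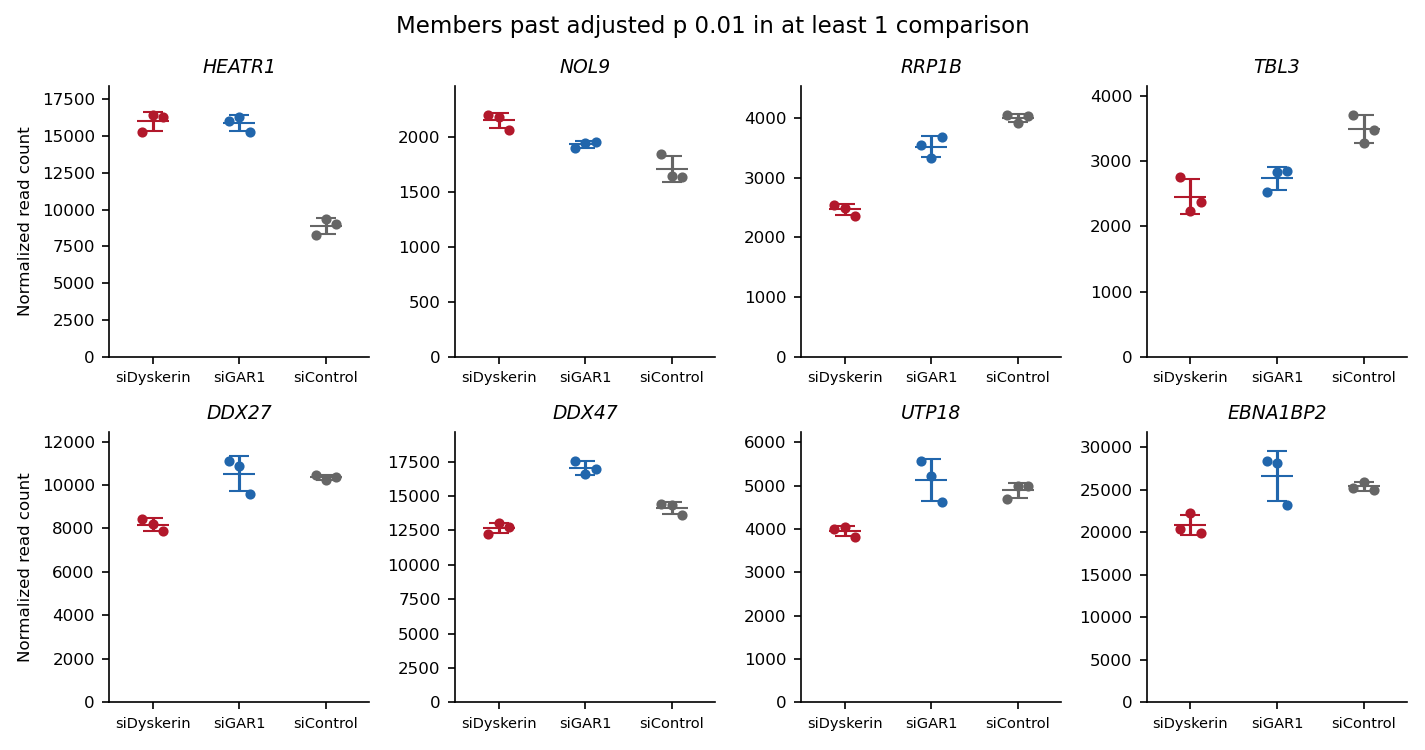
Normalized read counts (y axis, from 0) of the 8 members that passed an adjusted p of 0.01 in at least 1 comparison, in siDyskerin, siGAR1 and siControl. Points are libraries, the long dash is the mean and the bar the SD (n = 3). HEATR1 lies at 15249 to 16422 in the 6 knockdown libraries and at 8259 to 9352 in siControl, whereas RRP1B is at 2365 to 2552 in siDyskerin, below the other groups.

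RRP1B fell the most. It is a nucleolar protein of large subunit assembly that also binds chromatin, encoded on chromosome 21 (GRCh38, 43659560 to 43696079, plus strand). It had 2552, 2501 and 2365 normalized counts in siDyskerin, 3547, 3331 and 3688 in siGAR1, and 4054, 3926 and 4034 in siControl. The 3 groups did not overlap. Its log2 fold change was -0.70 ± 0.07 (SE) in siDyskerin (adjusted p = 1.33e-05, edgeR) and -0.19 ± 0.07 in siGAR1 (adjusted p = 0.097, edgeR). Its paralog RRP1, another large subunit factor, had log2 fold changes of -0.01 and 0.08 in these comparisons, with adjusted p of 0.95 and 0.60 from the same edgeR fits.

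TBL3, the human Utp13 of the UtpB subcomplex, had 2759, 2233 and 2376 normalized counts in siDyskerin, 2536, 2832 and 2844 in siGAR1, and 3711, 3284 and 3481 in siControl. Both knockdowns lay below siControl and overlapped each other. The log2 fold change was -0.51 ± 0.09 (SE) in siDyskerin (adjusted p = 0.0014, edgeR) and -0.35 ± 0.09 in siGAR1 (adjusted p = 0.022, edgeR). Of the other 5 UtpB members, UTP18 was at -0.31 in siDyskerin (adjusted p = 0.014, edgeR), WDR36 at 0.17, WDR3 at 0.10, UTP6 at -0.08 and PWP2 at -0.63, and none passed. PWP2 had 31, 34 and 35 normalized counts in siDyskerin, 55, 47 and 43 in siGAR1, and 61, 57 and 36 in siControl, so that its fold change has a wide error (SE 0.24) beside the uncertain assignment of its reads.

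DDX27, a DEAD-box helicase that works with PeBoW on 28S rRNA formation, had 8453, 8193 and 7876 normalized counts in siDyskerin, 11115, 10873 and 9589 in siGAR1, and 10467, 10221 and 10361 in siControl. The siDyskerin libraries lay below the others. Its log2 fold change in siDyskerin was -0.34 ± 0.07 (SE, adjusted p = 0.0035, edgeR), and without siControl replicate 2 or 3, or siDyskerin replicate 2 or 3, the adjusted p was above 0.01, at most 0.023. NOL9, the polynucleotide 5′-kinase of the internal transcribed spacer 2, had 2199, 2181 and 2067 normalized counts in siDyskerin, 1898, 1947 and 1956 in siGAR1, and 1843, 1640 and 1634 in siControl. All siDyskerin libraries were above the others. Its log2 fold change in siDyskerin was 0.33 ± 0.07 (SE, adjusted p = 0.0074, edgeR), and the call was lost in 7 of 9 fits that left out 1 library, all but those without siControl replicate 1 or siGAR1 replicate 3, where it was lost at an adjusted p of at most 0.044. The call on NOL9 was also lost with counts rebuilt from length-scaled TPM (adjusted p = 0.020) and with transcript length offsets (adjusted p = 0.018, both edgeR).

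By subunit, the median log2 fold change in siDyskerin was -0.07 over the 33 small subunit factors, -0.03 over the 22 large subunit factors and 0.04 over the 4 general nucleolar proteins. Of the small subunit factors 1 passed higher and 1 lower, and of the large subunit factors 1 passed higher and 2 lower. Among the small subunit factors that did not pass, the lowest after PWP2 were RRP9, the U3-specific WD40 protein, at -0.40 (adjusted p = 0.016, edgeR), the UtpC protein RRP7A at -0.31 (adjusted p = 0.021), UTP18 (above), the helicase DDX10 at -0.29 (adjusted p = 0.059) and the UtpC protein NOL6 at -0.29 (adjusted p = 0.035). With the threshold at 0.05, RRP9, RRP7A, NOL6, UTP18 and EBNA1BP2 joined the members that passed lower, 8 in all, against 6.71% of all genes, and the 2 that passed higher were unchanged, against 6.38%. The 8 late small subunit factors (TSR1, NOB1, PNO1, RIOK1, RIOK2, LTV1, BYSL and RRP12) lay between -0.16 and 0.14, and the 3 GTPases of the large subunit (GNL2, GNL3 and GTPBP4) between 0.01 and 0.14. Of PeBoW, PES1 was at -0.22, BOP1 at -0.17 and WDR12 at 0.10, with no member passing.

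**Figure D2:**
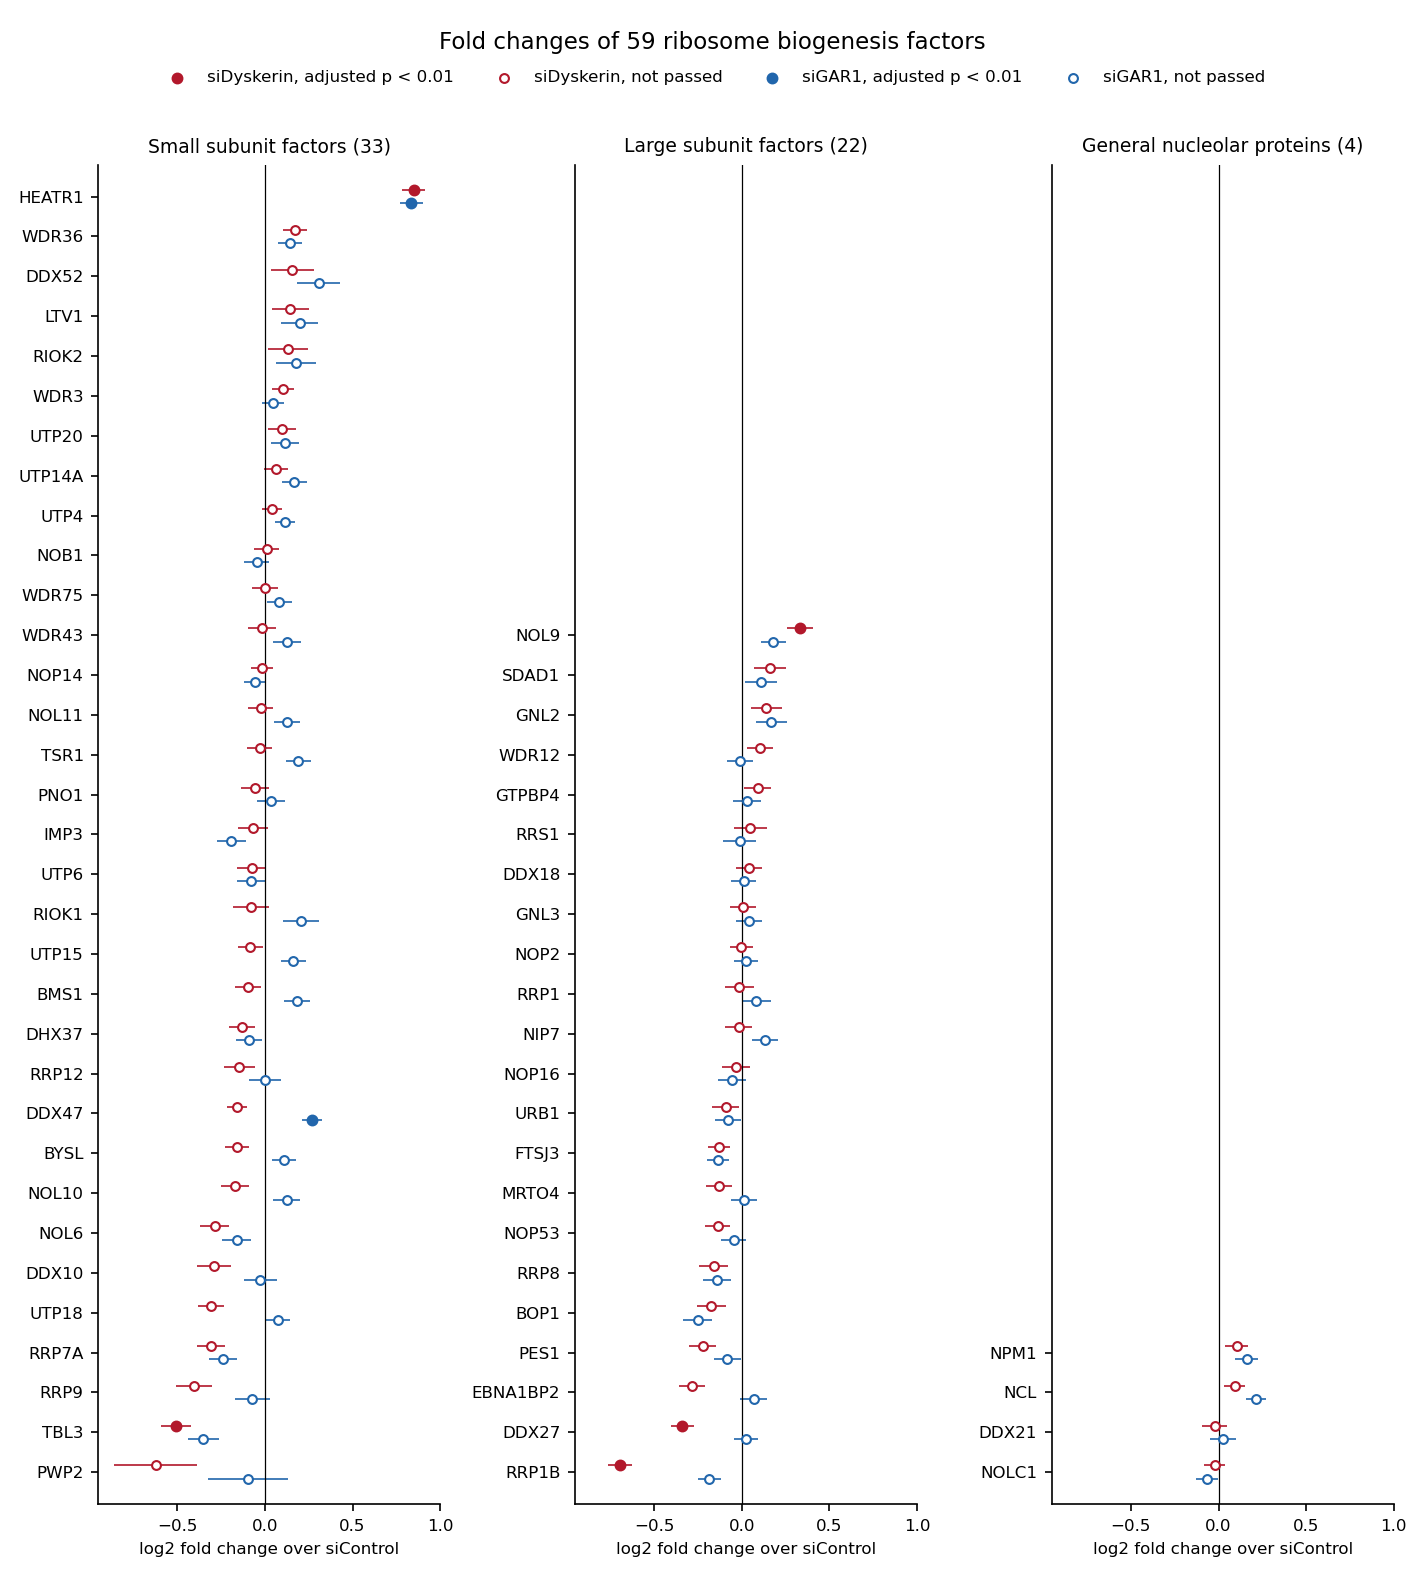
Log2 fold changes (x axis) of the 33 small subunit factors, the 22 large subunit factors and the 4 general nucleolar proteins, ordered by their value in siDyskerin. Red marks siDyskerin and blue siGAR1, both against the same siControl libraries, bars are standard errors of the edgeR fit, and filled points passed an adjusted p of 0.01. Most points lie within 0.2 of 0, HEATR1 stands at 0.85 and 0.84, and RRP1B at -0.70 in siDyskerin and -0.19 in siGAR1.

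In GAR1 knockdown HEATR1 rose (above), DDX47 rose by 0.27 on the log2 scale, and none fell, which is 2 members higher and 0 lower of 59, against 1.63 and 1.79% of all genes. None passed the additional fold threshold, which 0.282% of all genes did. At an unadjusted p under 0.05, 10 members were higher and 6 lower, against 11.8 and 12.2% of all genes, and DESeq2 called 2 higher and 1 lower, TBL3, against 4.03 and 5.25% of the genes to which it gave an adjusted p. At an adjusted p under 0.05 in edgeR, 3 were higher and 1 lower, against 4.15 and 4.55% of all genes. In 8 members all siGAR1 libraries lay above all siControl libraries and in 6 all lay below, against 13.6 and 14.1% of all genes. The members' median log2 fold change was 0.03, against 0.01 for all genes, with 23 of 59 below 0, against 48.7% of all genes, and 51 of 59 within 0.2 of 0. Medians were 0.11 for small subunit factors, 0.01 for large subunit factors and 0.09 for general nucleolar proteins.

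DDX47, the human Rrp3 helicase of the processome, had 12248, 13029 and 12761 normalized counts in siDyskerin, 17570, 16625 and 16939 in siGAR1, and 14423, 14360 and 13643 in siControl. The 3 groups did not overlap. Its log2 fold change was 0.27 ± 0.06 (SE, adjusted p = 0.0095, edgeR) in siGAR1 and -0.16 ± 0.06 (adjusted p = 0.087, edgeR) in siDyskerin. The siGAR1 call was lost in all 9 fits that left out 1 library, with adjusted p up to 0.067. Transcripts annotated to APOLD1, the next gene on the same strand, contain 99.7% of the 50-base words of the most-read DDX47 transcript, so the reads of both genes cannot be told apart there. At the other end of the siGAR1 comparison lay TBL3 at -0.35, BOP1, the PeBoW scaffold, at -0.25 (adjusted p = 0.075, edgeR), RRP7A at -0.24 (adjusted p = 0.080), IMP3, a protein of the U3 particle, at -0.19 (adjusted p = 0.17) and RRP1B at -0.19. The highest that did not pass was DDX52, the human Rok1 helicase, at 0.31 ± 0.12 (SE, adjusted p = 0.14, edgeR), with 4398, 3973 and 5909 normalized counts in siGAR1 against 3530, 4116 and 3890 in siControl. Replicate 3 of siGAR1 alone lay far above siControl in DDX52. GNL2, at 0.17, was the next highest large subunit factor after NOL9 at 0.18 (adjusted p = 0.14, edgeR).

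None of the 4 general nucleolar proteins passed in either knockdown. NCL had 94343, 100582 and 95006 normalized counts in siDyskerin, 108629, 108942 and 97804 in siGAR1, and 86465, 93379 and 91979 in siControl. Its log2 fold change was 0.09 in siDyskerin (adjusted p = 0.36, edgeR) and 0.21 in siGAR1 (adjusted p = 0.038, edgeR). All NCL values of both knockdowns lay above all siControl values. NPM1 was at 0.10 in siDyskerin and 0.16 in siGAR1, with all siGAR1 libraries above all siControl libraries, as in 13.6% of all genes. NOLC1, which binds both H/ACA and C/D particles, was at -0.02 and -0.07. DDX21, a helicase that links polymerase I and II transcription, was at -0.02 and 0.03.

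The direct comparison of siDyskerin with siGAR1 does not use siControl for its fold change, and there each member that passed was lower in siDyskerin. At an adjusted p under 0.01, 5 members were lower in siDyskerin (RRP1B, DDX47, UTP18, DDX27 and EBNA1BP2) and 0 higher, against 2.78 and 2.61% of all genes. At an unadjusted p under 0.05, 14 were lower and 0 higher, against 12.4 and 13.1% of all genes, and DESeq2 called 8 lower and 0 higher, against 5.21 and 6.32% of the genes to which it gave an adjusted p. Of the 13 mitochondrially encoded mRNAs, 2 passed lower and 0 higher in the same comparison, with a median of -0.37. Their log2 fold changes ran between -0.47 and -0.22. At an unadjusted p under 0.05, 13 of the 13 were lower, and DESeq2 called 6 lower and 0 higher. The part of these mRNAs in the results on the members was not tested. No member passed the additional fold threshold, which 0.721% of all genes did. The median was -0.08, against -0.0035 for all genes, and 42 of 59 members were below 0, against 50.6% of all genes. The median was -0.13 over the small subunit factors, of which 26 of 33 were below 0, -0.02 over the large subunit factors, of which 13 of 22 were below 0, and -0.05 over the general nucleolar proteins. In 15 members all siDyskerin libraries lay below all siGAR1 libraries, and in 1, NOL9, all lay above, against 14.6 and 15.1% of all genes.

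RRP1B was lower by a log2 difference of -0.51 ± 0.07 (SE, adjusted p = 2.54e-04, edgeR) and DDX47 by -0.43 ± 0.06 (adjusted p = 2.92e-04, edgeR), both in all 9 fits that left out 1 library. UTP18, a UtpB subunit encoded on chromosome 17 (GRCh38, 51260546 to 51297936, plus strand), had 3999, 4050 and 3816 normalized counts in siDyskerin, 5577, 5223 and 4618 in siGAR1, and 4702, 4985 and 4997 in siControl. Its difference between the knockdowns was -0.38 ± 0.07 (SE, adjusted p = 0.0047, edgeR). EBNA1BP2, the human Ebp2 of large subunit assembly, had 20425, 22235 and 19953 normalized counts in siDyskerin, 28437, 28212 and 23229 in siGAR1, and 25270, 25987 and 25002 in siControl. Its difference was -0.35 ± 0.08 (SE, adjusted p = 0.0082, edgeR). For both genes siDyskerin lay below siControl as well, and siGAR1 overlapped siControl.

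DDX27 differed by -0.36 ± 0.07 (SE, adjusted p = 0.0029, edgeR). The call on EBNA1BP2 was lost with counts rebuilt from length-scaled TPM (-0.33, adjusted p = 0.011, edgeR). The calls on UTP18, EBNA1BP2 and DDX27 were lost in 5, 7 and 4 of the 9 fits that left out 1 library, with adjusted p up to 0.032, 0.053 and 0.022. These included the fits without siDyskerin replicate 2 or 3, or siGAR1 replicate 1 or 2, for all 3 genes, the fit without siDyskerin replicate 1 for UTP18 and EBNA1BP2, and the fits without siControl replicate 2 or 3 for EBNA1BP2. With the threshold at 0.05, BYSL, RRP9, NOL10, UTP15 and BMS1, all small subunit factors, joined them, 10 in all, against 5.90% of all genes, with 0 higher, against 6.12%. BYSL, the human Enp1, was at -0.27, RRP9 at -0.33, NOL10, the human Enp2, at -0.30, UTP15 at -0.25 and BMS1, the GTPase of the processome, at -0.28.

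The libraries of siGAR1 were not alike in these genes. Relative to the siControl mean, the median log2 level of the 59 members was -0.04, 0.0003 and -0.08 in the siDyskerin libraries, 0.11, 0.07 and -0.08 in the siGAR1 libraries, and 0.0043, 0.02 and 0.0019 in the siControl libraries. The third siGAR1 library thus lay below the other siGAR1 libraries and near the lowest siDyskerin library, and it was the lowest of the 3 in 45 of 59 members, whereas the median over all genes was between 0.0007 and 0.014 in every library. For the large subunit factors the medians of the siGAR1 libraries were 0.08, 0.06 and -0.12. Without siGAR1 replicate 3 the median difference of siDyskerin from siGAR1 was -0.13, and the median log2 fold change of siGAR1 from siControl was 0.08. Without siGAR1 replicate 1 the median log2 fold change of siGAR1 was -0.0021. The median coefficient of variation of the members was 4.38% in siDyskerin, 7.70% in siGAR1 and 5.97% in siControl.

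**Figure D3:**
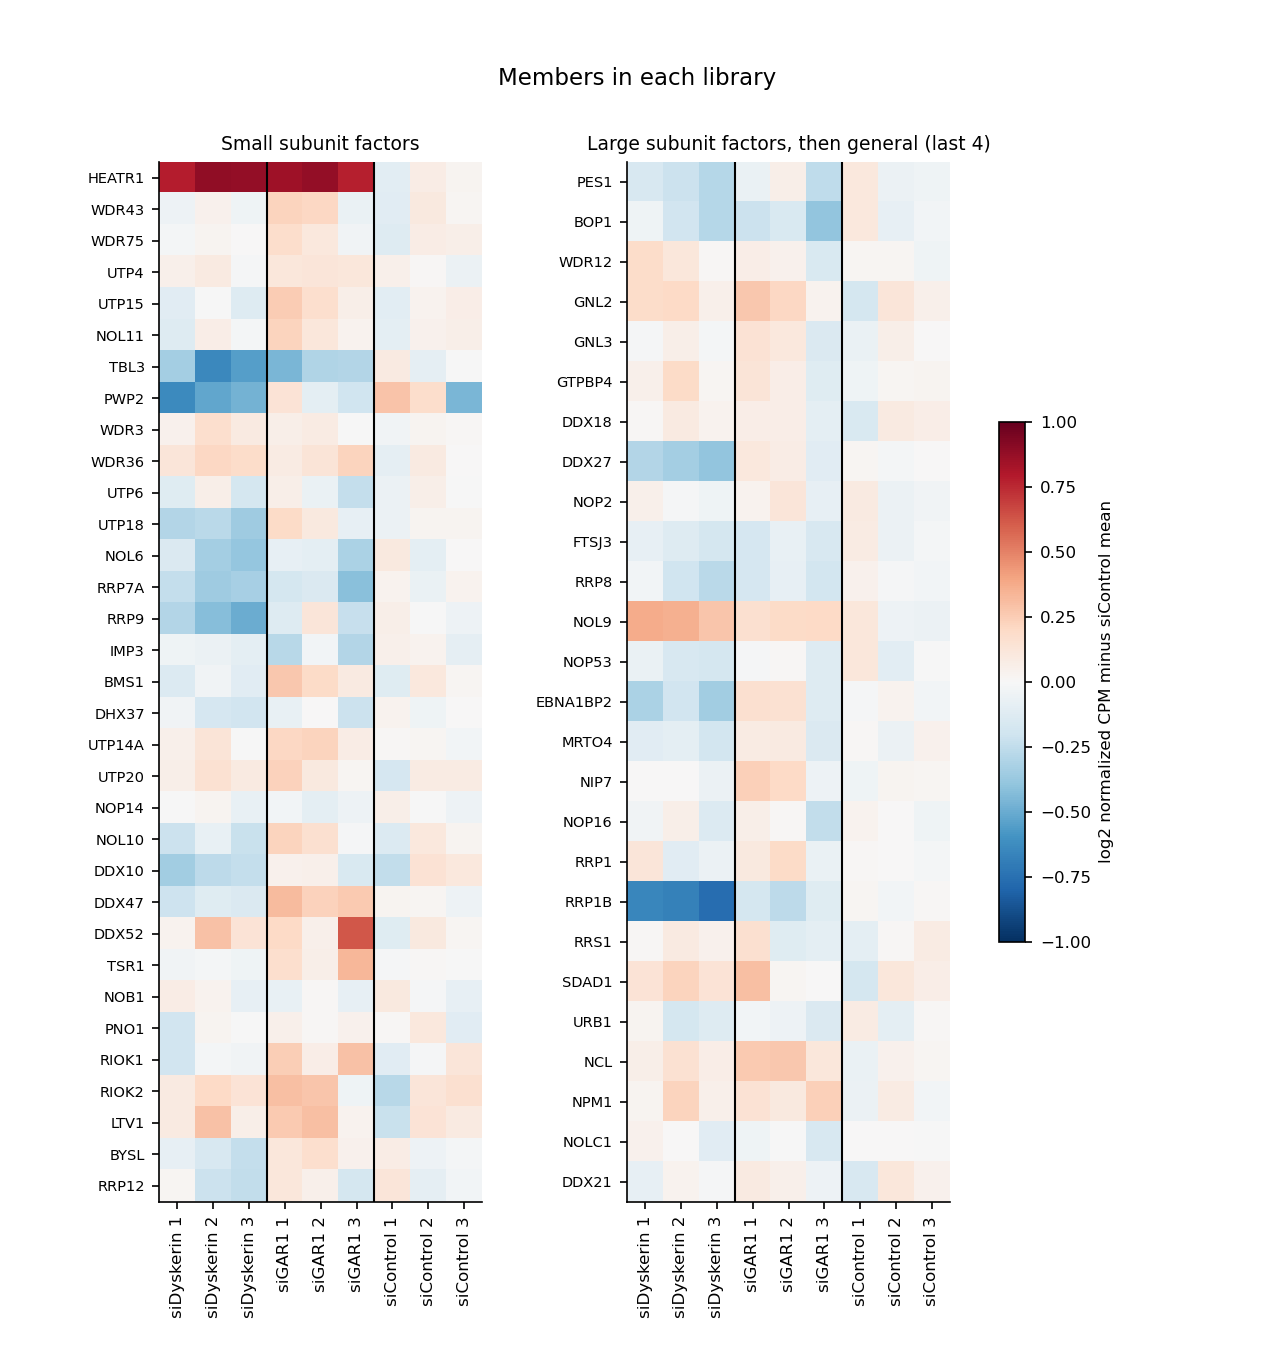
Log2 CPM (normalized counts per 1000000 reads) of each member in each library, minus its siControl mean (colour, from -1 to 1), with siDyskerin, siGAR1 and siControl libraries from left to right. HEATR1 is high in all 6 knockdown libraries, RRP1B is low in siDyskerin, and siGAR1 replicate 3 is lower than the other siGAR1 libraries in 18 of 22 large subunit factors (medians -0.12, against 0.08 and 0.06).

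Transcript usage was tested in the 55 members with at least 2 measured transcripts. None passed in siDyskerin or siGAR1 at an adjusted Simes p under 0.01 (diffSpliceDGE of edgeR), against 0.174 and 0.166% of all genes tested, and none had an unadjusted Simes p under 0.05. The smallest unadjusted Simes p was 0.26 for WDR43, a UtpA subunit, in siDyskerin and 0.15 for DDX18, a large subunit helicase, in siGAR1. By the gene-level F-test none passed either, against 0.427 and 0.293% of all genes. Because shared reads were counted in each transcript, transcripts of 1 gene have similar counts and shifts between them are diluted.

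Within 7 members lie 17 annotated small RNA genes, 13 in introns alone and 4 that overlap an exon of some transcript, 3 in GNL3 and SNORD23 in NOP53. Of the 13, 3 are H/ACA RNAs, the guides that dyskerin binds: SNORA38B in NOL11, SNORA80A in URB1 and SNORA75 in NCL. They are shown because they are the direct partners of the silenced complex that lie within members. The sequences are the GENCODE transcripts of these genes, in the DNA alphabet, with the ACA box that gives the class its name in capitals, 3 bases from the 3′ end. Their GRCh38 positions are chr17:67740669-67740799, chr21:32377187-32377322 and chr2:231455800-231455936.
SNORA38B: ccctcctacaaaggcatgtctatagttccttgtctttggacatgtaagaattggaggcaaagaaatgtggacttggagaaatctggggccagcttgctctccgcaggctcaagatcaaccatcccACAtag
SNORA80A: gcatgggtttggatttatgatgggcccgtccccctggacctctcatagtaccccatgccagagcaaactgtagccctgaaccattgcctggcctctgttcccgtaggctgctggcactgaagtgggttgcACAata
SNORA75: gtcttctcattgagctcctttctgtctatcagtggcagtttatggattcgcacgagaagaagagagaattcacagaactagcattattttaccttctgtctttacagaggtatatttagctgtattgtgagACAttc

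SNORA38B had 6, 10 and 8 reads in siDyskerin, 45, 26 and 22 in siGAR1, and 24, 30 and 25 in siControl. Every siDyskerin library lay below every other library. The log2 fold change was -1.57 ± 0.37 (SE, adjusted p = 0.012, edgeR) in siDyskerin and 0.35 ± 0.31 (adjusted p = 0.53, edgeR) in siGAR1, and the difference of siDyskerin from siGAR1 was -1.92 ± 0.36 (adjusted p = 0.0037, edgeR). The host NOL11 had log2 fold changes of -0.03 and 0.12 in the 2 knockdowns. SNORA80A had 5, 5 and 2 reads in siDyskerin, 22, 13 and 13 in siGAR1, and 18, 21 and 9 in siControl, a log2 fold change of -1.81 ± 0.42 (SE, adjusted p = 0.011, edgeR) in siDyskerin and a difference of -1.98 ± 0.42 from siGAR1 (adjusted p = 0.0073, edgeR). Its host URB1, a large subunit factor, was at -0.09 and -0.08. SNORA75 had 2, 1 and 2 reads in siDyskerin, 13, 7 and 8 in siGAR1, and 7, 3 and 6 in siControl, too few to pass the count filter. Summed over libraries it had 0.0257 reads per 1000000 matched reads in siDyskerin (exact 95% Poisson interval 0.00834 to 0.0599), 0.144 in siGAR1 (0.0956 to 0.208) and 0.0737 in siControl (0.0421 to 0.120), intervals that cover counting error only. Both tested H/ACA RNAs thus missed the threshold against siControl and passed it against siGAR1, while their hosts lay within 0.2 of 0 in each knockdown.

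The 14 other small RNA genes in members, most of them of the C/D class in WDR43, TSR1, GNL3, NOP53 and NCL, had at most 5 reads in any library and were not tested. In nuclear RNA a read inside a small nucleolar RNA gene can come from the mature RNA or from the unspliced intron, and these cannot be told apart. Leaving out all transcripts that overlap small RNA genes left the count of members that passed at 2 higher and 3 lower in siDyskerin, and at 2 and 0 in siGAR1. Of all genes in that fit, 3.07 and 3.36% passed higher and lower in siDyskerin, and 1.64 and 1.79% in siGAR1.

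**Figure D4:**
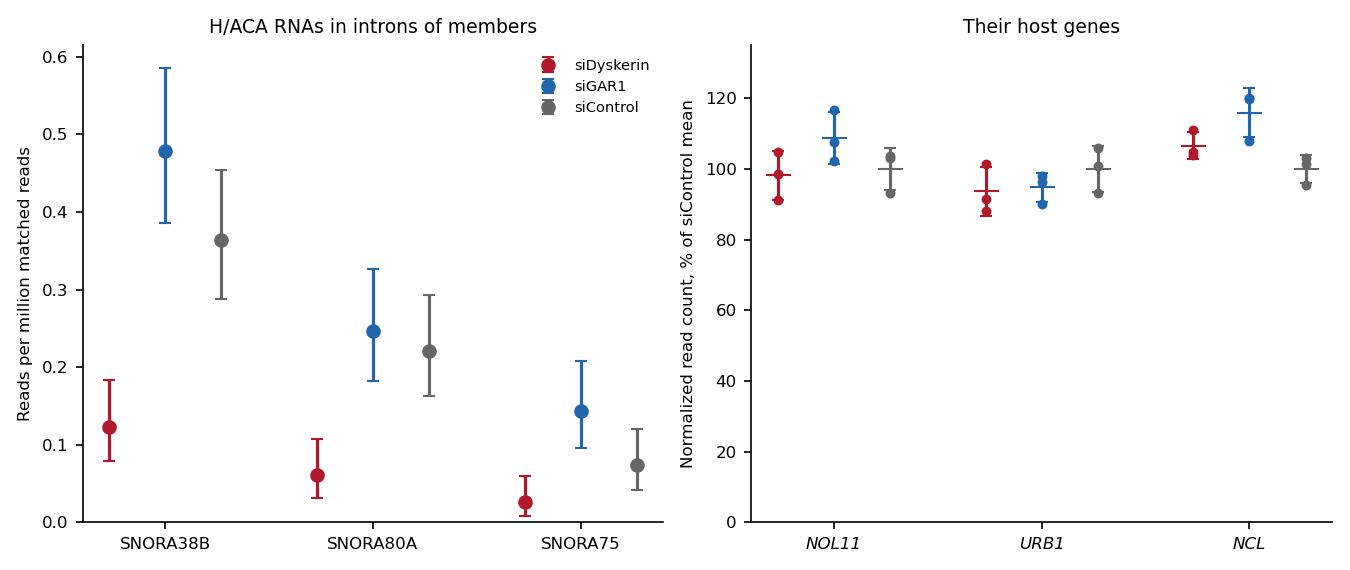
Left, reads per 1000000 matched reads of the 3 H/ACA RNAs in introns of members, summed over 3 libraries, with exact 95% Poisson intervals. Right, normalized read counts of their host genes as percent of the siControl mean, with points for libraries, a dash for the mean and bars for the SD (n = 3). SNORA38B stands at 0.123 in siDyskerin, 0.478 in siGAR1 and 0.364 in siControl, while the 3 hosts overlap between groups except NCL, whose libraries are higher in siDyskerin and siGAR1 than in siControl.

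Many ribosome biogenesis genes are known targets of MYC, which binds the E-box. The motif CACGTG, a palindrome that reads the same on both strands, was searched in the RefSeq promoter windows (GRCh38) of 300 bases around the transcription start, which were held for 51 of 59 members. It occurred in 21 of 51 members (41.2%), against 12.4% of 11216 protein-coding genes tested here and 8.77% of all 27305 genes with a window. By subunit it occurred in 13 of 30 small subunit factors, 7 of 18 large subunit factors and 1 of 3 general nucleolar proteins. Of the 8 members that passed in some comparison, 7 had a window, and 2 of these held the motif, UTP18 and EBNA1BP2. Both were lower in siDyskerin than in siGAR1, as were DDX27 and DDX47, whose windows did not hold the motif. A match of letters is a description and shows no binding. Windows of UTP18 and EBNA1BP2 are printed with the motif in capitals. That of UTP18, chr17:51260296-51260595 (plus strand), holds it at 2 positions. The window printed for EBNA1BP2 is chr1:43172241-43172540 (minus strand). Another window of EBNA1BP2, chr1:43172521-43172820 (minus strand), also holds the motif and is not printed.
UTP18: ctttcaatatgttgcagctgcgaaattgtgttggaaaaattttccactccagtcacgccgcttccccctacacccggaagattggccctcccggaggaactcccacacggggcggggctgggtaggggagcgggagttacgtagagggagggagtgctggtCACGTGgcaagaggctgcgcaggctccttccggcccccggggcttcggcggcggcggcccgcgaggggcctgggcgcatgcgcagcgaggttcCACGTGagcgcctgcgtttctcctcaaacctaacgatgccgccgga
EBNA1BP2: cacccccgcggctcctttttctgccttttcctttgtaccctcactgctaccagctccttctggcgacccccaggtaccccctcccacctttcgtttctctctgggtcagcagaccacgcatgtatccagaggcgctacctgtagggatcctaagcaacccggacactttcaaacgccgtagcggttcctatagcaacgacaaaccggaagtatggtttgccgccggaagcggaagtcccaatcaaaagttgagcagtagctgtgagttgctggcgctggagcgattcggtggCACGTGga

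Other genes of the pathway were read from lists. Of all genes, 3.08 and 3.32% passed higher and lower in siDyskerin, 1.63 and 1.79% in siGAR1, and 2.61 and 2.78% in siDyskerin against siGAR1. At an unadjusted p under 0.05 these shares were 13.0 and 13.1%, 11.8 and 12.2%, and 13.1 and 12.4%. By DESeq2 they were 5.60 and 6.01%, 4.03 and 5.25%, and 6.32 and 5.21%. Of 77 further assembly factors, 0 passed in siDyskerin (median -0.02, with 6 higher and 6 lower at an unadjusted p under 0.05, and 1 lower by DESeq2) and 0 in siGAR1 (median 0.09, with 15 higher and 3 lower at an unadjusted p under 0.05, and 0 by DESeq2), both by edgeR. Of the same genes, 3 were lower and 0 higher in siDyskerin than in siGAR1, with a median of -0.09. At an unadjusted p under 0.05, 3 were higher and 20 lower, and DESeq2 called 2 higher and 6 lower. The 3 that passed were KRR1, a processome protein, at -0.51 (adjusted p = 0.0050), RPF2, which brings in the 5S particle, at -0.47 (adjusted p = 0.0062), and AATF at -0.33 (adjusted p = 0.0050, all edgeR). Of 20 genes of the RNA polymerase I machinery, POLR1F rose and POLR2H and TAF1D fell in siDyskerin. Their log2 fold changes were 0.51, -0.63 and -0.55 (adjusted p = 6.32e-04, 1.00e-04 and 5.73e-04, edgeR). At an unadjusted p under 0.05, 2 of the 20 were higher and 4 lower in siDyskerin, and DESeq2 called 1 higher and 2 lower. None passed in siGAR1, where 5 were higher and 0 lower at an unadjusted p under 0.05 and DESeq2 called 1 higher. In siDyskerin against siGAR1, 2 of the 20, TAF1D and POLR2H, were lower and 0 higher, at -0.78 and -0.57 (adjusted p = 5.72e-05 and 3.14e-04, edgeR), with a median of -0.09. At an unadjusted p under 0.05, 7 of the 20 were lower and 0 higher there, and DESeq2 called 6 lower. Of 79 cytosolic ribosomal proteins 3 fell in siDyskerin, RPL26 at -0.78, RPL10A at -0.27 and RPL3 at -0.24. At an unadjusted p under 0.05, 0 of the 79 were higher and 3 lower in siDyskerin, and DESeq2 called 3 lower. None passed in siGAR1, where 5 were higher and 9 lower at an unadjusted p under 0.05 and DESeq2 called 4 lower. None of the 4 core proteins of the C/D particle (among them FBL, NOP56 and NOP58) passed in any comparison by edgeR or DESeq2. At an unadjusted p under 0.05, 1 was lower in siDyskerin, 1 higher in siGAR1 and 1 lower in siDyskerin against siGAR1. The medians of the members, -0.03 in siDyskerin and 0.03 in siGAR1, lay near those of the ribosomal proteins, -0.01 and 0.03, and all lay within 0.1 of 0. In siDyskerin against siGAR1 the medians were -0.08 for the members and -0.03 for the ribosomal proteins. There 1 ribosomal protein passed lower, RPL26 at -0.91 (adjusted p = 8.45e-06, edgeR), and 0 higher. At an unadjusted p under 0.05, 2 of the 79 were higher and 9 lower, and DESeq2 called 1 lower.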

How the data were processed

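Nuclear RNA of the 9 libraries was rRNA-depleted with RiboCop and sequenced as stranded CORALL libraries. Per the authors, reads were checked with FastQC 0.11.9, trimmed with Trim Galore 0.6.4, cleared of rRNA and tRNA with Bowtie2 2.4.1 and quantified with Salmon 1.2.0 against GENCODE 27 on GRCh38. The expected counts and TPM values deposited by the authors are given per transcript and library. The counts were nearly all whole numbers, and in 96.4 to 96.8% of nested transcript pairs with at least 10 reads the longer one held as many reads as the shorter or more, so shared reads were counted repeatedly.

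Transcript names without version were matched to GENCODE 44 (195887 of 200401), and unmatched transcripts (3.69 to 3.84% of reads) were left out. Counts were summed per gene, rounded to whole numbers, filtered with filterByExpr and normalized by TMM. The quasi-likelihood test of edgeR 4.0.16 (R 4.3.3) was fitted to all 9 libraries without covariates, and genes passed at an adjusted p under 0.01. Standard errors are the log2 fold change over the root of F, and 95% intervals use 6 residual degrees of freedom. The script was tested on simulated data. DESeq2 1.42.0 and other alternatives are given in the closing section. Members and lists were chosen with earlier results of these data known. Named members were those that passed, the extremes of each class, general nucleolar proteins, the 3 highest and lowest TPM, hosts of small RNAs and the smallest usage p. Further members are named by subcomplex or where a count turns on them. Common biological variation was 0.0886, above counting error for all members but PWP2. STAR 2.7.0e alignments were not used here.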

Additional observations from a re-analysis of the deposited data

Results flagged for a closer look

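For 5 members the effects of the 2 knockdowns differed in the direct test of siDyskerin against siGAR1 (edgeR, adjusted p under 0.01 over all genes). The log2 difference was -0.51 for RRP1B (adjusted p = 2.54e-04), -0.43 for DDX47 (adjusted p = 2.92e-04), -0.36 for DDX27 (adjusted p = 0.0029), -0.38 for UTP18 (adjusted p = 0.0047) and -0.35 for EBNA1BP2 (adjusted p = 0.0082). All siDyskerin libraries were below all siGAR1 libraries in each of the 5. RRP1B and DDX27 had also passed against siControl in siDyskerin, and DDX47 had passed in the other direction in siGAR1, where APOLD1 shares its reads.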

How the results depend on the processing

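HEATR1 in both knockdowns, RRP1B and TBL3 in siDyskerin, and RRP1B and DDX47 in siDyskerin against siGAR1 kept their direction and their calls in all 18 other fits. With DESeq2 the members that passed lower were 7 in siDyskerin, 1 in siGAR1 and 8 in siDyskerin against siGAR1; with the most-read transcript alone 8 in siDyskerin (5.25% of all genes in that fit) and 9 in siDyskerin against siGAR1 (4.06%); with no low-count filter 9 in siDyskerin and 1 in siGAR1 (5.48 and 4.19% of the 18444 genes). These fits called more genes overall. With the threshold at 0.05 they were 8, 1 and 10. Members that passed higher were 1 in each knockdown, HEATR1, with length-scaled TPM counts and with transcript length offsets, and 1 in siGAR1 with relative log expression factors, the most-read transcript or no filter. In fits without 1 library, members higher were 1 to 2 in siDyskerin and 1 in siGAR1, and members lower were 2 to 7 in siDyskerin, 0 to 1 in siGAR1 and 2 to 5 in siDyskerin against siGAR1. Of all genes in these fits, 1.75 to 3.43% were higher in siDyskerin and 0.749 to 1.30% in siGAR1. Lower were 1.96 to 4.14% in siDyskerin, 0.787 to 1.79% in siGAR1 and 1.43 to 3.07% in siDyskerin against siGAR1. The 7 members lower in siDyskerin came without siGAR1 replicate 3, when EBNA1BP2, RRP7A, RRP9 and UTP18 joined and 4.14% of all genes passed lower. TBL3 passed lower in siGAR1 at -0.36 without siDyskerin replicate 1. The median of the members moved by less than the spread of library medians (SD 0.0619) in every fit. Leaving out 1 of 3 libraries limits such a move, so this is no test of stability. The moves were not small beside the medians themselves, as given above for siGAR1 without replicate 1 or 3. The causes of the differences between fits were not tested.

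Same-numbered libraries deviated together at most weakly (9 correlations of -0.07 to 0.10), so the replicate numbers were not taken as pairs. Differently numbered libraries of different groups had correlations of -0.10 to 0.06. Between siControl and siDyskerin the same-numbered correlations were 0.10, 0.07 and 0.04, and the others were -0.09 to 0.02. With a replicate block 2 members passed higher and 4 lower in siDyskerin, against 3.38 and 3.76% of all genes. In siGAR1 2 and 0 passed, against 1.82 and 2.03%, and in siDyskerin against siGAR1 0 and 5, against 2.71 and 2.98%. EBNA1BP2 was the member added in siDyskerin (adjusted p = 0.0089, edgeR). In transcript usage 0 members passed in every fit. Of 1458 refits of named members that had not passed, 20 passed, in 5 members, and 60 changed sign without passing, all with an original log2 fold change of at most 0.15 in size.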
